A study of Mus musculus with 12 samples.

Results

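The comparison described here is the difference between the responses of a pair of knockout lines to isorhamnetin. It was taken per gene as the isorhamnetin minus DMSO change in GATA3-KO cells minus the same change in Rictor-KO cells, on a log2 scale. It rests on 8 of the 12 libraries of the series and was followed across all 11808 genes tested. A negative difference means that the transcript moved lower, or rose less, in GATA3-KO than in Rictor-KO.

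The cells were J774.1, a macrophage-like line of BALB/c mice, and RNA was sequenced after 6 h with isorhamnetin at 10 µM or with its solvent DMSO. The 4 groups used were Rictor-KO with DMSO, Rictor-KO with isorhamnetin, GATA3-KO with DMSO and GATA3-KO with isorhamnetin, each with 2 libraries. The remaining 4 libraries, from WT cells, entered only the estimate of the spread. Whether the replicates came from separate cultures is not stated, so the p-values speak only of the scatter between these libraries, and that scatter may be technical. Each knockout is 1 line, so a knockout and the history of its line cannot be told apart, and the lines are named here as labelled.

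Isorhamnetin is a methylated flavonol found in many plants. Electrophilic and redox-active compounds are known to release the transcription factor NRF2 from its inhibitor KEAP1, after which NRF2 switches on genes of detoxification, glutathione and NADPH metabolism. Rictor is a subunit that the kinase mTORC2 needs to phosphorylate Akt, and GATA3 is a DNA-binding regulator studied mostly in T lymphocytes. In macrophages, metabolism, interferon signalling and the antioxidant programme are known to be coupled, and the comparison asks where the lines answer the same compound differently.

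The 8 libraries held 35671457 to 53099804 exon reads, with Eef1a1 as the most abundant transcript in each. Macrophage markers were present, with 8 of 10 at 1 CPM (normalised read count, scaled to a common library size) or more and no read for Mertk. Of 9 T lymphocyte markers, Lck and Cd5 alone reached 1 CPM, and their list summed to a mean of 35 CPM in GATA3-KO with DMSO, 24.7 with isorhamnetin, and 4.69 and 6.16 in Rictor-KO. Cd3e, Cd3g, Cd4, Cd8a, Trac and Zap70 had no read. Rictor mRNA stood at 34.3 and 31.2 CPM in Rictor-KO with DMSO and at 36.2 and 32.3 CPM in GATA3-KO with DMSO, with overlapping ranges. The treated libraries had 23 and 23.9 CPM in Rictor-KO against 28.5 and 27.6 CPM in GATA3-KO, without overlap. Its difference in response was 0.20 (SE 0.13, adjusted p = 0.392). Gata3 stayed between 0.282 and 0.707 CPM in all 8 libraries, with a difference of 0.91 (SE 0.80, adjusted p = 0.524). In bulk RNA, fewer cells of a kind and less RNA per cell cannot be told apart.

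In the main fit isorhamnetin changed 226 transcripts in Rictor-KO (1.91% of the genes tested) and 3092 in GATA3-KO (26.2%). Yet no single gene passed that fit's test of the difference itself. In Rictor-KO 169 genes rose (1.43%) and 57 fell (0.483%), and 59 (0.5%) changed by 2-fold or more. In GATA3-KO 1209 rose (10.2%) and 1883 fell (15.9%), and 126 (1.07%) changed by 2-fold or more. Counts of responses in the gene lists below stand against these shares of all genes. The GATA3-KO count was 549 without GATA3-KO DMSO replicate 1 and 544 without GATA3-KO IR replicate 2, and the Rictor-KO count was 147 without Rictor-KO DMSO replicate 2 and 143 without Rictor-KO IR replicate 1. With upper quartile scaling the GATA3-KO split turned to 1990 higher and 1384 lower. For the difference, edgeR's quasi-likelihood test called 0 of 11808 genes (0.0%) at an adjusted p of 0.05, with a smallest adjusted p of 0.0737. At an unadjusted p of 0.05 it marked 2711 genes (23.0%), of which 1082 (9.16%) were higher and 1629 (13.8%) lower in GATA3-KO. DESeq2, run as an alternative, called 1009 of the 8104 genes to which it gave an adjusted p, 265 higher and 744 lower. The count of 0 depended on the model. With all 12 libraries edgeR called 3173 genes with a replicate block within genotype, that is, a term for the replicate number in each line. It called 494 with a replicate block shared by the genotypes and 233 with no filter on low counts. Nor did the 0 hold without GATA3-KO DMSO replicate 2. The 2711 genes became 1295 without GATA3-KO DMSO replicate 1 and 1258 without GATA3-KO IR replicate 2.

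The differences were mostly modest in size. Among the 2711 genes the median absolute difference was 0.446 on the log2 scale, and 132 reached 2-fold, 67 higher and 65 lower. Of the 1629 lower genes, 1173 (72%) had fallen in GATA3-KO with no call in Rictor-KO, and 56 (3.44%) had risen in Rictor-KO with no call in GATA3-KO. Another 370 (22.7%) were called in neither line. Of the 1082 higher genes, 586 (54.2%) had risen in GATA3-KO with no call in Rictor-KO, and 483 (44.6%) were called in neither. Over all genes, 144 (1.22%) were called in both lines with equal signs. Only Fnip2 and Plxnd1 (0.0169%) were called in both with opposite signs. Since the difference also followed exon length and GC content, as shown further on, a value with each library's trend with both removed is given beside the fitted one as the offset value. That alternative was chosen after seeing the data. With these offsets 8.68% of all genes were higher and 8.0% lower at an unadjusted p of 0.05. Counts with the offsets in the gene lists below stand against these shares, not those of the main fit.

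**Figure D1:**
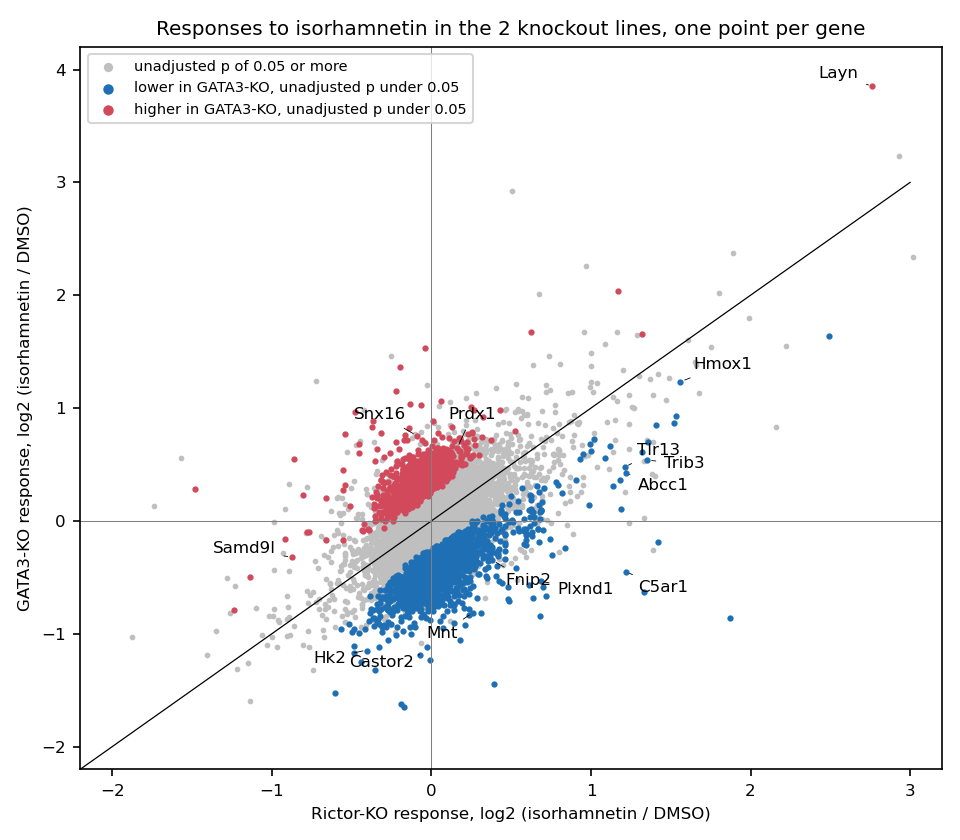
Log2 response to isorhamnetin in Rictor-KO (horizontal axis) and GATA3-KO (vertical axis) for the 9902 genes with a mean of at least 2 CPM over the 8 libraries, of which 9888 lie inside the axes. Points on the diagonal responded equally, blue and red points had an unadjusted p under 0.05 for the difference, and none of them passed the adjusted threshold. Most coloured points lie near 0 on the horizontal axis, while C5ar1 and Plxnd1 lie to the lower right and Layn lies to the upper right.

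No gene qualified as past the threshold, so C5ar1, Plxnd1, Mnt, Myadm, Layn and the genes given below outside any list were chosen after their values were seen. They had the smallest p for the difference among genes whose IR/DMSO ratios of libraries did not overlap between the lines, in some cases with opposite signs. Their separation by library is thus part of the choice. Genes given with a list are among its up to 4 members with the smallest p for the difference. They are thus extremes of their list and do not stand for its other members. C5ar1 encodes the receptor for the complement fragment C5a, an attractant of macrophages (ENSMUSG00000049130, chromosome 7, 16246743 to 16259540, GRCm38). It stood at 1.01 and 0.918 CPM in Rictor-KO with DMSO and at 2.02 and 2.46 CPM with isorhamnetin. GATA3-KO libraries had 5.56 and 4.67 CPM of it with DMSO and 3.85 and 3.61 CPM with isorhamnetin. Both treated Rictor-KO libraries were thus above their controls and both treated GATA3-KO libraries below theirs. C5ar1 rose in Rictor-KO (1.22, adjusted p = 0.0069), had a response of -0.45 in GATA3-KO (adjusted p = 0.0518) and a difference of -1.67 (SE 0.27, adjusted p = 0.0737), with an offset value of -1.68.

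Fnip2 encodes a partner of folliculin in nutrient signalling at the lysosome (ENSMUSG00000061175, chromosome 3, 79455974 to 79567796). Its level was 130 and 129 CPM in Rictor-KO with DMSO against 169 and 170 CPM with isorhamnetin. In GATA3-KO it went from 106 and 93.7 CPM to 78.8 and 77.7 CPM. It rose in Rictor-KO (0.38, adjusted p = 0.0417) and fell in GATA3-KO (-0.35, adjusted p = 0.0123), a difference of -0.73 (SE 0.13, adjusted p = 0.0737) with an offset value of -0.43. Plxnd1, which encodes a semaphorin receptor (ENSMUSG00000030123, chromosome 6, 115954811 to 115995005), was at 16.4 and 15.8 CPM in untreated and 26.4 and 25.4 CPM in treated Rictor-KO. In GATA3-KO it was at 28.2 and 19.2 CPM with DMSO and 17.8 and 14.9 CPM with isorhamnetin. The spread between the GATA3-KO controls was wide, but neither treated library reached the lower control. Its difference was -1.22 (SE 0.22), and it lay between -1.47 and -0.92 when any library was left out. Its offset value was -0.69.

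Mnt, a Max-binding repressor that opposes Myc (ENSMUSG00000000282, chromosome 11, 74830920 to 74845725), was at 41.8 and 37.4 CPM in Rictor-KO with DMSO and 48.4 and 46.3 CPM with isorhamnetin. In GATA3-KO it went from 29.1 and 26.3 CPM to 17.9 and 13.5 CPM. Mnt fell in GATA3-KO (-0.81, adjusted p = 0.000818), and its difference was -1.07 (SE 0.17, adjusted p = 0.0737), the smallest unadjusted p of the genes named here (1.76e-05). Castor2, a paralogue of the arginine sensor of the mTORC1 pathway, stayed between 33.1 and 37.4 CPM in all 4 Rictor-KO libraries. It stood at 47.9 and 38.4 CPM in GATA3-KO with DMSO and at 20.4 and 17.5 CPM with isorhamnetin, a fall of 1.19 (adjusted p = 0.00013). Its difference was -1.11 (SE 0.18) and lay between -1.26 and -0.94 when any library was left out. The offset values were -0.73 for Mnt and -0.73 for Castor2. Myadm, a myeloid membrane protein, was at 114 and 120 CPM in untreated Rictor-KO and 148 and 163 CPM in treated cells. In GATA3-KO it went from 133 and 118 CPM to 99.5 and 90.2 CPM, and its difference was -0.81 (SE 0.14), with an offset value of -0.70.

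IR/DMSO ratios of libraries were set side by side for every gene as a description. In 1741 genes (14.7%) all ratios of GATA3-KO lay above all those of Rictor-KO, and in 2337 (19.8%) all lay below. In 883 genes (7.48%) the ratios of the lines had opposite signs throughout, C5ar1, Fnip2, Plxnd1, Mnt and Myadm among them. Such ratios were part of the rule by which those genes were picked. Layn, which encodes the hyaluronan receptor layilin (ENSMUSG00000060594, chromosome 9, 51054640 to 51077094), is an example of a shared rise with a positive difference. It was at 5.79 and 5.84 CPM in Rictor-KO with DMSO and at 36 and 43 CPM with isorhamnetin. In GATA3-KO it went from 1.28 and 2.04 CPM to 22.4 and 25.8 CPM. It rose in both lines (2.76, adjusted p = 3.53e-07, and 3.85, adjusted p = 3.75e-08), with a difference of 1.09 (SE 0.24, adjusted p = 0.0737) and an offset value of 1.04. The treated level stayed lower in GATA3-KO than in Rictor-KO.

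**Figure D2:**
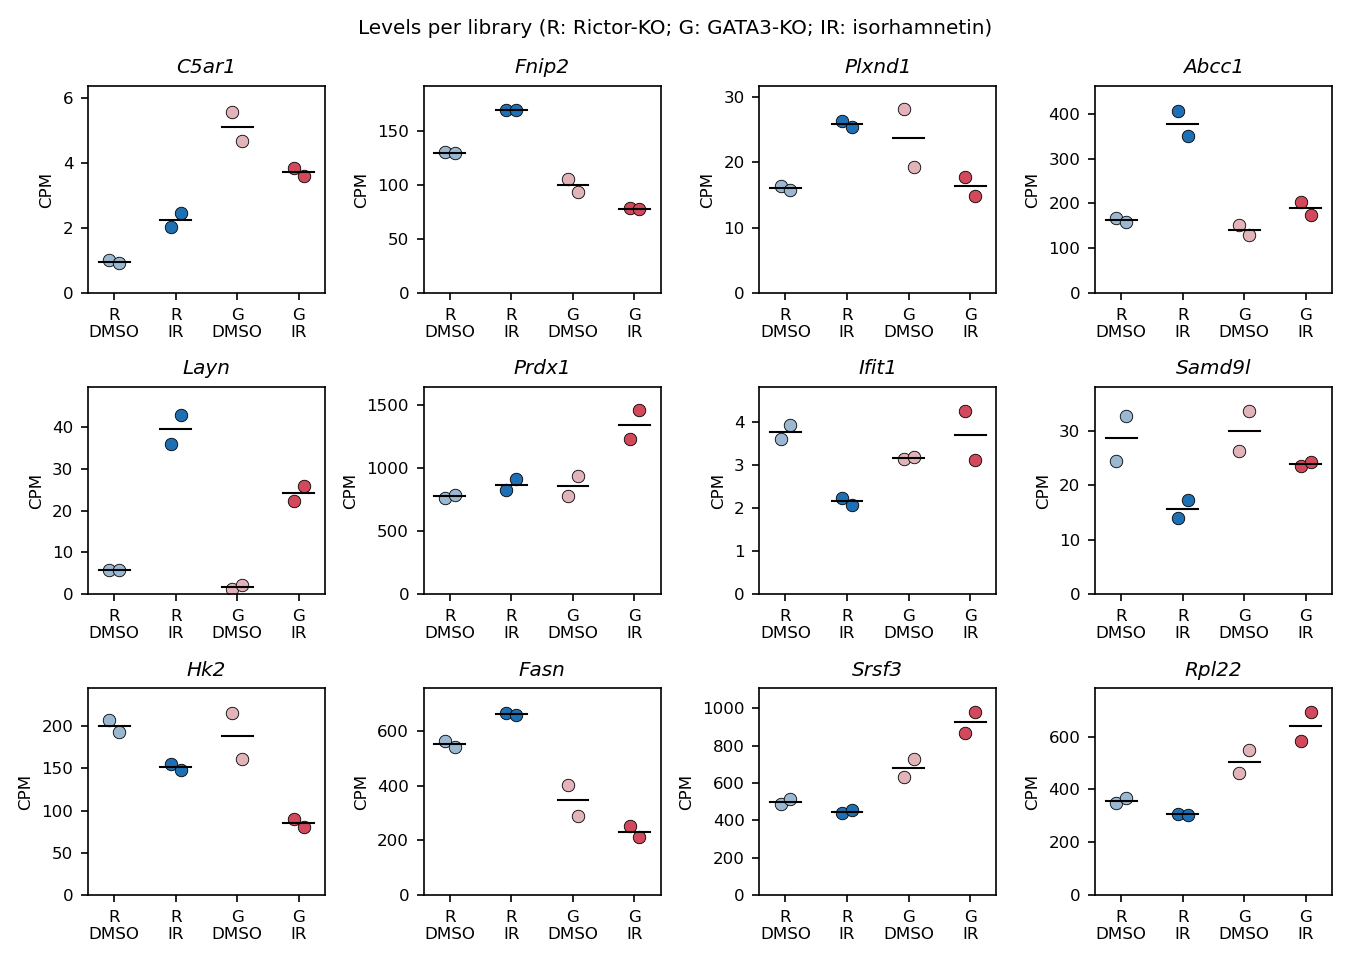
CPM (vertical axis, from 0) of 12 genes in each of the 8 libraries, with points for libraries and bars for group means. C5ar1, Fnip2 and Plxnd1 move in opposite directions in the lines, Abcc1 and Layn rise in both, and Samd9l, at 24.5 and 32.7 CPM in untreated and 14 and 17.2 CPM in treated Rictor-KO, is lower mainly there.

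Targets of NRF2 rose in both lines, and several rose less in GATA3-KO. Of 31 tested members, 19 rose and 0 fell in Rictor-KO, and 23 rose and 0 fell in GATA3-KO, with median responses of 1.03 and 0.72. For the difference, 3 members were higher and 8 lower at an unadjusted p of 0.05, and the median was -0.17, against -0.015 over all genes and shares of 9.16% higher and 13.8% lower there. The offset median was -0.20, with 1 higher and 10 lower, against 8.68% and 8.0% of all genes with the offsets. Without Rictor-KO DMSO replicate 1 the fitted median was -0.33. Abcc1, the export pump for glutathione conjugates (ENSMUSG00000023088, chromosome 16, 14361558 to 14475737), was at 167 and 159 CPM in Rictor-KO with DMSO and at 407 and 351 CPM with isorhamnetin. In GATA3-KO it was at 152 and 130 CPM against 203 and 175 CPM. Controls were thus alike, and both treated Rictor-KO libraries stood above all others. Abcc1 rose by 1.22 in Rictor-KO (adjusted p = 1.03e-05) and by 0.42 in GATA3-KO (adjusted p = 0.0104), a difference of -0.80 (SE 0.15, adjusted p = 0.0737) with an offset value of -0.48.

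Abcc4, an exporter of the same family, had responses of 0.38 and -0.25, neither past the threshold, and a difference of -0.63 (SE 0.15, adjusted p = 0.0737; offset value -0.41). G6pdx, the first enzyme of the pentose phosphate pathway and a source of NADPH, rose from 281 and 287 to 457 and 439 CPM in Rictor-KO and from 259 and 238 to 322 and 296 CPM in GATA3-KO. The difference was -0.35 (SE 0.11, adjusted p = 0.11; offset value -0.27). H6pd, its counterpart in the endoplasmic reticulum, rose in Rictor-KO (0.71, adjusted p = 0.00334) and had a response of 0.29 in GATA3-KO (adjusted p = 0.0771), a difference of -0.42 that was -0.083 with the offsets. Prdx1, a peroxiredoxin that reduces hydrogen peroxide, went the other way. It was at 763 and 788 CPM in untreated and 824 and 910 CPM in treated Rictor-KO, and at 781 and 938 CPM against 1228 and 1458 CPM in GATA3-KO. Only the GATA3-KO response passed the threshold (0.64, adjusted p = 0.00169), and the difference was 0.48 (SE 0.16, adjusted p = 0.106; offset value 0.29). Gpx4 (0.44) and Prdx2 (0.43), which detoxify lipid and hydrogen peroxides, also had positive differences, with adjusted p of 0.136 and 0.139 and offset values of 0.46 and 0.36. Sesn2, of the same list of glutathione and thioredoxin systems, had a negative one (-0.76). Of the 32 tested members of that list 6 were higher and 3 lower, against 9.16% and 13.8% of all genes. Its sign was positive in 19 and negative in 13, with a median of 0.11, or 0.076 with the offsets.

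Members near the detection limit were read as ratios of reads. Trim16, an E3 ubiquitin ligase, had 2 reads in Rictor-KO with DMSO and 84 with isorhamnetin, a ratio of 39.5 (95% exact counting interval 10.6 to 331). In GATA3-KO it had 31 and 48 reads, a ratio of 1.27 (0.793 to 2.07). The intervals do not overlap, but they cover counting error only, and both mates of a read pair appear to be counted. Nqo1, a quinone reductase, had 0 reads in Rictor-KO with DMSO and 72 with isorhamnetin. Against a floor of 3 reads over the DMSO libraries, with each read taken as independent, Nqo1 was at least 22.6-fold higher. In GATA3-KO it had 45 and 750 reads, a ratio of 13.7 (10.1 to 18.9). The bound for Rictor-KO lies above this interval, but it leaves out the counting error of the 72 reads. Since both mates appear to be counted, the bound is also too high and the interval too narrow, so their order is not settled. The fitted difference was -4.40 (SE 1.62, adjusted p = 0.139). With 0.5 CPM added to each value, all library ratios were instead higher in GATA3-KO, so the order depends on how the 0 reads are handled. Slc40a1, the iron exporter ferroportin, rose in both lines (4.61 and 3.87) from 0.49 and 0.841 CPM in Rictor-KO and from 2.56 and 2.53 CPM in GATA3-KO. Hmox1, which degrades heme, rose by 1.56 and 1.23, and its difference of -0.33 had an adjusted p of 0.206 and an offset value of -0.41.

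Among 10 tested regulators of NRF2, 1 was higher and 3 lower at an unadjusted p of 0.05, against 9.16% and 13.8% of all genes, with a median of -0.26. With the offsets 0 were higher and 1 lower, and the median was -0.095. Keap1, the NRF2 inhibitor, fell in GATA3-KO (-0.25, adjusted p = 0.0392), had a response of 0.10 in Rictor-KO, and differed by -0.35 (SE 0.12, adjusted p = 0.116), or -0.032 with the offsets. Nfe2l1, an NRF2-related factor, had a difference of -0.51 (SE 0.15, adjusted p = 0.0939; offset value -0.24). Mafg, the small Maf partner of NRF2, rose in both lines (0.56 and 0.30), with a difference of -0.27 that became 0.047 with the offsets.

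Promoters are shown for a pair of NRF2 targets with opposite signs of the difference, and capitals mark matches to the core of the antioxidant response element, TGACNNNGC, on either strand. The sequences are from RefSeq (GRCm38.p6) and run 5′ to 3′ along the gene from 250 bases before to 50 bases after a start site. Prdx1 is chr4:116685349-116685648 on the plus strand and G6pdx is chrX:74428831-74429130 on the minus strand.
Prdx1: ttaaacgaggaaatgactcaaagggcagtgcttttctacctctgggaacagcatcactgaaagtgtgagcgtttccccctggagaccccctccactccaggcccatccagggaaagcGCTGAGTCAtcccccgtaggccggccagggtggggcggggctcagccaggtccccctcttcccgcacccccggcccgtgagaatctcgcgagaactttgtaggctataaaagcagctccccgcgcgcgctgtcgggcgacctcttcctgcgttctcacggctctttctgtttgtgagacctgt
G6pdx: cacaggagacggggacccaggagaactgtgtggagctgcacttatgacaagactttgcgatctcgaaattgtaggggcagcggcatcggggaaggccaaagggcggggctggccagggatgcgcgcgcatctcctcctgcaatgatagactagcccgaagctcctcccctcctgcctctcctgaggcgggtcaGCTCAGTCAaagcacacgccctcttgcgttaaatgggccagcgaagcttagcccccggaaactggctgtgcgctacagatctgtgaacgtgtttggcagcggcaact
Each holds 1 match. Of the 31 tested members 25 had a promoter listed, and 9 of these (36%) held a match, against 16.9% of 9370 tested genes with a promoter and 12.4% of all 32851 promoters. A match is a description of letters and shows no binding.

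In each line the interferon-stimulated genes past the threshold there fell, with 1 exception in GATA3-KO. The median response was lower in Rictor-KO. Of 50 tested members, 10 fell and 0 rose in Rictor-KO, and 12 fell and 1 rose in GATA3-KO, with median responses of -0.66 and -0.25. Over all genes 0.483% fell and 1.43% rose in Rictor-KO, and 15.9% fell and 10.2% rose in GATA3-KO. The difference was higher at an unadjusted p of 0.05 in 7 members and lower in 0, against 9.16% and 13.8% of all genes. Its sign was positive in 40 of 50, against 5681 of all 11808 genes, and its median was 0.23. The offset median was also 0.23, with 7 higher and 0 lower. Leaving out 1 library moved the median: it was 0.37 without Rictor-KO IR replicate 2, 0.36 without GATA3-KO DMSO replicate 2 and 0.15 without GATA3-KO IR replicate 1. Ifit1, which binds foreign RNA (ENSMUSG00000034459, chromosome 19, 34640871 to 34650009), was at 3.59 and 3.92 CPM in untreated and 2.24 and 2.06 CPM in treated Rictor-KO. In GATA3-KO it was at 3.12 and 3.19 CPM against 4.26 and 3.11 CPM. Neither response passed the threshold, and the difference was 1.03 (SE 0.32, adjusted p = 0.101; offset value 0.86).

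Samd9l, an interferon-induced restriction factor, fell in Rictor-KO from 24.5 and 32.7 CPM to 14 and 17.2 CPM (-0.88, adjusted p = 0.00638). In GATA3-KO it was at 26.2 and 33.6 CPM against 23.5 and 24.3 CPM (-0.32, adjusted p = 0.122). The replicate spread was wide, and the difference was 0.55 (SE 0.21, adjusted p = 0.148; offset value 0.46). Oas1g, a double-stranded RNA sensor of the oligoadenylate synthetase family, rose in GATA3-KO from 63 and 78.5 CPM to 89.2 and 102 CPM (0.43, adjusted p = 0.025). In Rictor-KO it was at 61.1 and 66 CPM against 54.6 and 70.2 CPM, with overlapping groups, and the difference was 0.46 (SE 0.18, adjusted p = 0.158; offset value 0.42).

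The promoters of Ifit1 (chr19:34640639-34640938, plus strand) and Oas1g (chr5:120887564-120887863, minus strand) are shown as members with positive differences, with matches to the core of the interferon-stimulated response element, TTTC, any 2 bases, TTTC, in capitals on either strand.
Ifit1: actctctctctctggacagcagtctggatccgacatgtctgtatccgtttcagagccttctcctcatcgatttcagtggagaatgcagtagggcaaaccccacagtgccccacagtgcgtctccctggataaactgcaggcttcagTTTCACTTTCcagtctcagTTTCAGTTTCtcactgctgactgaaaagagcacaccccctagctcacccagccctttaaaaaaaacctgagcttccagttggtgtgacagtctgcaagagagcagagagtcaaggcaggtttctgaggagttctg
Oas1g: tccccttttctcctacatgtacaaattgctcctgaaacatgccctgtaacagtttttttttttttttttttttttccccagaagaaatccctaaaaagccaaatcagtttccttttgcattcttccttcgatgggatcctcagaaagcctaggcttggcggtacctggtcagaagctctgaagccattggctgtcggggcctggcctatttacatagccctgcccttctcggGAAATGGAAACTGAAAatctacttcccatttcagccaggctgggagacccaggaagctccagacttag
Each holds 2 matches, and those of Oas1g overlap. Of 50 tested members 38 had a promoter listed, and 23 of these (60.5%) held a match, against 3.92% of tested genes and 3.44% of all promoters.

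Of 28 tested interferon and STAT regulators, 2 fell in Rictor-KO and 9 in GATA3-KO, with median responses of -0.080 and -0.21. The difference was higher in 0 and lower in 8 at an unadjusted p of 0.05, against 9.16% and 13.8% of all genes. Its median was -0.15. With the offsets 1 was higher and 4 were lower, and the median was -0.062. The fitted median was -0.24 without Rictor-KO IR replicate 2. Stat3, the factor downstream of interleukin-6 family and interleukin-10 receptors, fell in both, from 121 and 115 to 78 and 81.2 CPM and from 101 and 90.1 to 52.7 and 45.9 CPM. Its difference was -0.39 (SE 0.13, adjusted p = 0.113), or -0.079 with the offsets. Stat6, the factor downstream of interleukin-4, fell in GATA3-KO (-0.66, adjusted p = 0.000646) and had a response of -0.15 in Rictor-KO (difference -0.51, SE 0.13, adjusted p = 0.078, offset value -0.33). Nfkb1, an NF-kB subunit, also fell in GATA3-KO (-0.71, adjusted p = 0.000494), with a difference of -0.45 (SE 0.13, adjusted p = 0.0961; offset value -0.47). Over the 44 inflammatory cytokines and NF-kB genes to which it belongs, however, the difference was higher in 1 and lower in 3, which is under the background of 9.16% and 13.8%. Tnfaip2, induced by tumour necrosis factor, was another of the 3: it rose in both lines (1.53 and 0.93), with a difference of -0.60 (SE 0.20, adjusted p = 0.119; offset value -0.34).

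Genes of the amino acid response include many targets of the stress factor ATF4. Of 34 tested members, 8 rose in Rictor-KO, and 14 rose and 5 fell in GATA3-KO. For the difference 2 were higher and 10 lower, against 9.16% and 13.8% of all genes. The median was -0.26, or -0.21 with the offsets (3 higher and 10 lower). Trib3, a pseudokinase induced through ATF4, rose from 9.09 and 10.9 to 22 and 29.2 CPM in Rictor-KO and from 20.7 and 20.6 to 29.1 and 31 CPM in GATA3-KO. The treated levels met, while the GATA3-KO controls stood higher, and the difference was -0.82 (SE 0.23, adjusted p = 0.0885; offset value -0.71). Aldh1l2, a mitochondrial folate enzyme, rose in Rictor-KO from 44 and 55.4 to 81.5 and 93.8 CPM, and was at 110 and 110 CPM against 137 and 124 CPM in GATA3-KO (difference -0.57, SE 0.15, adjusted p = 0.0804, offset value -0.38). All GATA3-KO libraries stood above all Rictor-KO libraries. Slc7a1 and Slc7a5, amino acid transporters, fell in GATA3-KO (-0.49 and -0.30) and had responses of 0.08 and 0.22 in Rictor-KO, with offset values of the difference of -0.23 and -0.29. Sesn2, a leucine sensor that restrains mTORC1, had responses of 0.34 and -0.42, neither past the threshold, and a difference of -0.76 (SE 0.23, adjusted p = 0.0976; offset value -0.49). Eif2ak3, the kinase PERK of the unfolded protein response, fell in GATA3-KO (-0.52, adjusted p = 0.00378), with a difference of -0.75 (SE 0.15, adjusted p = 0.0737; offset value -0.57). Hspa5, the chaperone BiP, had a positive difference (0.47, adjusted p = 0.129, offset value 0.45).

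**Figure D3:**
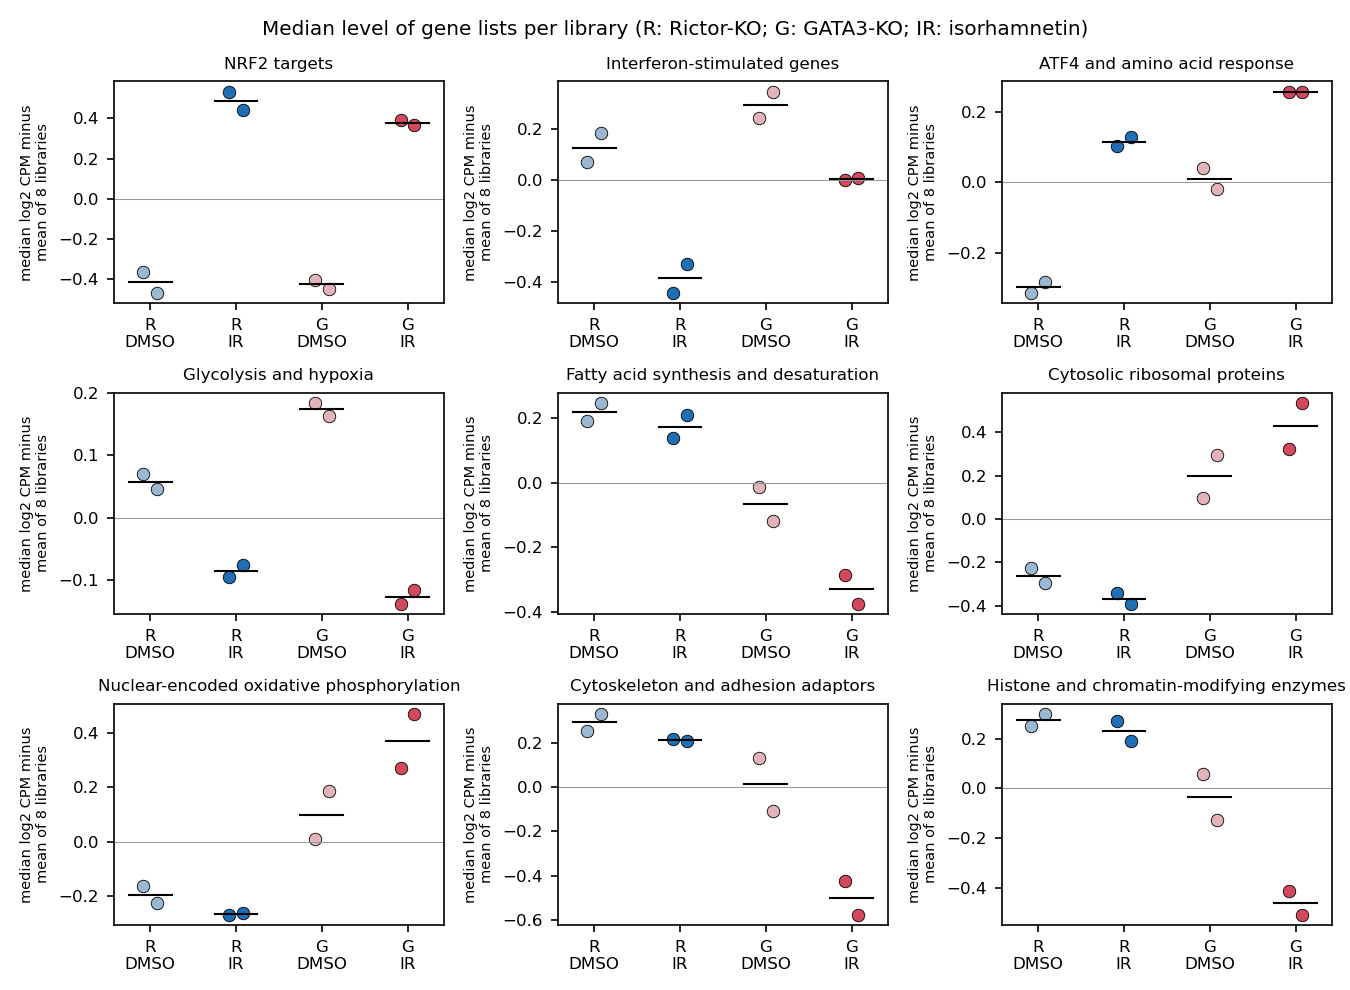
Median over members of log2 CPM minus each gene's mean over the 8 libraries (vertical axis), for 9 gene lists and each library. NRF2 targets are near -0.4 in all 4 untreated libraries, ATF4 targets start higher in GATA3-KO, and the GATA3-KO libraries of ribosomal protein and cytoskeleton genes also differ between replicates.

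The difference followed the exon length and GC content of the genes. Median exon length ran from 727 bases in replication-dependent histones to 8281 in chromatin enzymes over the 44 lists, and median GC content from 37.1% in mitochondrially encoded transcripts to 55.4% in those histones. Over 7846 genes with a mean log2 CPM of at least 4, the Spearman correlation of the difference with exon length was -0.442. It was 0.047 for the Rictor-KO response and -0.403 for the GATA3-KO response. With GC content it was -0.357, 0.211 and -0.235 for the same 3 quantities, over 7845 genes. These correlations are across genes measured in the same 8 libraries and carry no p. In the shortest eighth of genes the median difference was 0.218, with 29.6% higher and 1.32% lower at an unadjusted p of 0.05. In the longest eighth it was -0.289, with 2.75% higher and 41.5% lower. The order was not that of treatment alone: in the longest eighth the GATA3-KO libraries stood at 0.25 and 0.0463 with DMSO and at -0.0986 and -0.194 with isorhamnetin. The gap between the DMSO replicates was thus wider than that between the nearer control and treated library. The Rictor-KO libraries lay between -0.0199 and 0.043 there.

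**Figure D4:**
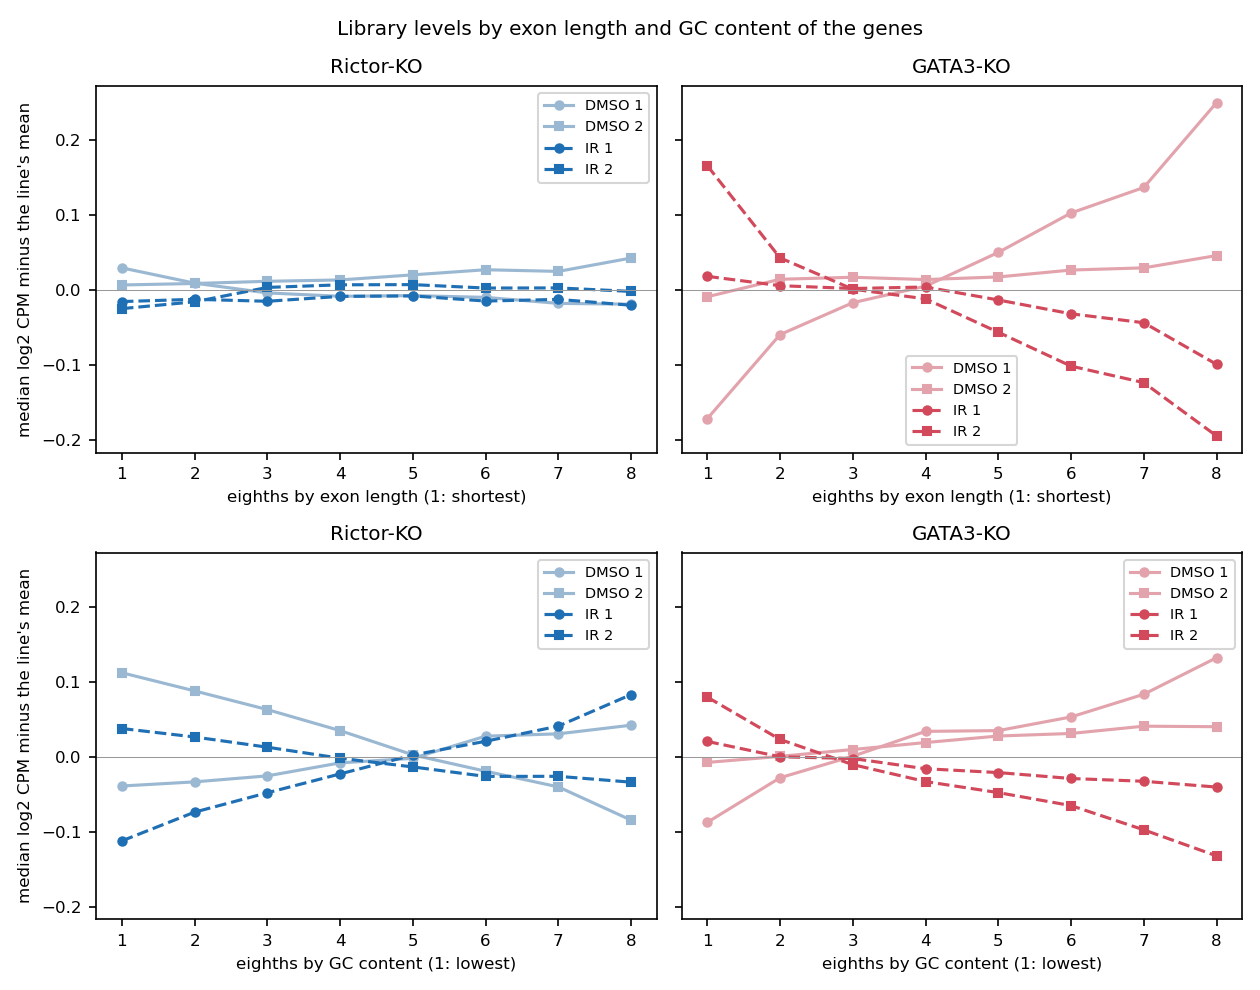
Median log2 CPM of each library minus the mean of its line (vertical axis), in eighths of genes by exon length (top) and by GC content (bottom), for Rictor-KO (left) and GATA3-KO (right). The GATA3-KO libraries fan out with exon length from 0.25 to -0.194 in the longest eighth, whereas the Rictor-KO libraries separate by replicate along GC content.

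When each library's trend with exon length and GC content was removed by offsets, edgeR again called 0 genes for the difference. At an unadjusted p of 0.05 it then marked 1025 genes (8.68%) as higher and 945 (8.0%) as lower, and the smallest adjusted p was 0.109. In GATA3-KO 1402 genes rose and 1362 fell under these offsets. The offsets also reduce any change that treatment makes in long genes as a class, and the part of the trend in each result was not tested.

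Of 43 tested glycolysis and hypoxia genes, 1 rose and 6 fell in Rictor-KO, while 1 rose and 28 fell in GATA3-KO. Over all genes 1.43% rose and 0.483% fell in Rictor-KO, and 10.2% rose and 15.9% fell in GATA3-KO. The difference was higher in 1 and lower in 13, against 9.16% and 13.8% of all genes, with a median of -0.19. With the offsets 2 were higher and 13 lower, and the median was -0.11. The fitted median was -0.12 without Rictor-KO IR replicate 2. Hk2, the inducible hexokinase (ENSMUSG00000000628, chromosome 6, 82725025 to 82774454), was at 208 and 193 CPM in untreated and 155 and 148 CPM in treated Rictor-KO. In GATA3-KO it fell from 216 and 160 CPM to 89.8 and 80.4 CPM (-1.15, adjusted p = 0.000162). The difference was -0.74 (SE 0.17, adjusted p = 0.0737), or -0.45 under the offsets. Pfkfb3, which makes the activator of phosphofructokinase, stayed between 29.3 and 34.3 CPM in Rictor-KO and fell from 36 and 31.6 to 18.1 and 18.5 CPM in GATA3-KO. Its difference was -0.87 (SE 0.16, adjusted p = 0.0737), or -0.65 under the offsets. Hk1, the constitutive hexokinase, fell in GATA3-KO (-0.77), and Pfkl, liver-type phosphofructokinase, fell in both (-0.36 and -0.86), with differences of -0.67 and -0.50 and offset values of -0.27 and -0.25.

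Of 24 tested fatty acid synthesis genes, 0 changed past the threshold in Rictor-KO and 9 fell in GATA3-KO. The difference was lower in 9 and higher in 0, against 13.8% and 9.16% of all genes. Its median was -0.27, or -0.17 under the offsets, with 6 lower. Fasn, fatty acid synthase, was at 563 and 542 CPM in untreated and 666 and 659 CPM in treated Rictor-KO, and at 402 and 291 CPM against 251 and 213 CPM in GATA3-KO. The ratios had opposite signs in the lines, and the difference was -0.84 (SE 0.17, adjusted p = 0.0737), or -0.27 under the offsets. Acaca, acetyl-CoA carboxylase (-0.57), Fads2, a desaturase (-0.49), and Srebf1, a regulator of lipid synthesis (-0.49), also had negative differences, with offset values of -0.22, -0.33 and -0.17. Of 25 cholesterol synthesis genes 3 were lower and 0 higher, which is no more than the background, among them Srebf2, the factor SREBP2 (-0.46, offset value -0.083). Abcg1, a cholesterol exporter, rose in Rictor-KO from 40.2 and 32.1 to 58 and 57.9 CPM and was at 75.6 and 66.3 against 78.3 and 71.6 CPM in GATA3-KO (difference -0.60, SE 0.16, adjusted p = 0.0819, offset value -0.26). Npc1, the lysosomal cholesterol transporter, had opposite ratios in the lines (difference -0.68, adjusted p = 0.0737, offset value -0.60).

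Of 43 tested members of the mTOR complexes and the Akt pathway, 1 rose and 1 fell in Rictor-KO, and 3 rose and 15 fell in GATA3-KO. The difference was higher in 3 and lower in 14, against 9.16% and 13.8% of all genes. Its median of -0.23 became -0.037 under the offsets, however, with 3 higher and 7 lower, against 8.68% and 8.0% of all genes. The fitted median was -0.15 without GATA3-KO IR replicate 2. Inpp5d, the lipid phosphatase SHIP1, fell in GATA3-KO (-0.74, adjusted p = 0.00108) and differed by -0.76 (SE 0.16; offset value -0.49). Eif4ebp2, a translation repressor controlled by mTORC1 (-0.60), and Gsk3a, a kinase inhibited by Akt (-0.43), had negative differences as well, with offset values of -0.31 and -0.25. Foxo3, a transcription factor that Akt keeps out of the nucleus, fell from 45.4 and 36 to 26.1 and 21.3 CPM in GATA3-KO and was at 51.7 and 46 against 51.2 and 45.1 CPM in Rictor-KO (difference -0.76, SE 0.18, adjusted p = 0.0737, offset value -0.37). Its target Bcl2l11, the pro-apoptotic protein BIM, rose in Rictor-KO (0.67, adjusted p = 0.0292), with a difference of -0.74 (SE 0.21; offset value -0.50). Over the 25 tested FoxO factors and targets, 0 were higher and 6 lower, against 9.16% and 13.8% of all genes. With the offsets 1 was higher and 4 were lower, and the median went from -0.070 to 0.024.

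Lysosome and autophagy genes lay near the background of 9.16% higher and 13.8% lower. Of 46 lysosome and TFEB targets 4 were higher and 9 lower, and of 32 autophagy genes 5 were higher and 4 lower. Tfeb, the master regulator of lysosome genes, fell in GATA3-KO (-0.68, adjusted p = 0.0039), with a difference of -0.73 (SE 0.20), or -0.27 under the offsets. Atg9a, a membrane carrier of autophagy, fell in GATA3-KO (-0.93) and differed by -0.57 (offset value -0.23). Map1lc3b, which encodes the autophagosome protein LC3B, rose there from 66.1 and 77.3 to 104 and 119 CPM (0.64, adjusted p = 0.00128), with a difference of 0.41 (SE 0.15, adjusted p = 0.129; offset value 0.63).

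The cytoskeleton held the largest negative median of the 44 lists. Of 33 tested members, 0 were higher and 25 lower for the difference at an unadjusted p of 0.05, against 9.16% and 13.8% of all genes. The sign was negative in all 33, against 6097 of all 11808 genes. In GATA3-KO 27 fell, and in Rictor-KO 1 rose and 1 fell. The median was -0.53, or -0.28 under the offsets, with 14 members still lower. The members have long transcripts, with a median exon length of 5693 bases against 3391 over all genes. Myh9, non-muscle myosin heavy chain (ENSMUSG00000022443, chromosome 15, 77760587 to 77842175), was at 681 and 653 CPM in untreated and 734 and 665 CPM in treated Rictor-KO. In GATA3-KO it fell from 559 and 413 to 291 and 252 CPM. The difference was -0.91 (SE 0.17, adjusted p = 0.0737), or -0.43 under the offsets. Tln1, the integrin-binding adaptor talin (-0.78), Sptan1, a spectrin (-0.75), and Actn4, an actin crosslinker (-0.55), moved alike, and Myo1c, a membrane-bound myosin that is in none of the lists, differed by -0.67. Their offset values were -0.28, -0.36, -0.30 and -0.31. All 11 tested integrins had a negative sign, against 6097 of all 11808 genes. Among them Itgax was near the detection limit, at 0.148 CPM or less in each library. Of the 11 integrins 5 were lower, against 13.8% of all genes, among them Itgav (-0.45, offset value -0.34) and Itgb7 (-0.94, offset value -0.75). The integrin median of -0.45 became -0.25 with the offsets, with 3 lower, and was -0.30 without Rictor-KO IR replicate 1.

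Chromatin enzymes have the longest median transcript of the 44 lists. Of 49 tested enzymes 26 fell in GATA3-KO and 0 in Rictor-KO. For the difference 23 were lower and 0 higher, against 13.8% and 9.16% of all genes. Their median exon length was 8281 bases, and the median difference of -0.36 became -0.055 under the offsets, with 5 higher and 4 lower. The fitted median was -0.20 without GATA3-KO DMSO replicate 1. Chd4, a nucleosome remodeller, was at 517 and 526 CPM in untreated and 480 and 457 CPM in treated Rictor-KO, and fell from 482 and 368 to 263 and 230 CPM in GATA3-KO. Its difference was -0.63 (SE 0.16), or -0.26 under the offsets. The corepressor Ncor1 (-0.53) and the remodeller Smarca2 (-0.56) each had an adjusted p of 0.0737, with offset values of -0.17 and -0.20.

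Ribosomal proteins and respiratory chain subunits have short transcripts and positive medians. Of 80 tested cytosolic ribosomal proteins, 27 rose in GATA3-KO and 0 changed past the threshold in Rictor-KO. The difference was higher in 46 and lower in 0, against 9.16% and 13.8% of all genes. Its median was 0.31, or 0.15 under the offsets (32 higher and 2 lower), and the median exon length of the members was 1027 bases. Rpl22, a protein of the large subunit (ENSMUSG00000028936, chromosome 4, 152325742 to 152334071), was at 347 and 367 CPM in untreated and 308 and 304 CPM in treated Rictor-KO. In GATA3-KO it rose from 462 and 548 to 584 and 694 CPM (0.34, adjusted p = 0.0218). The difference was 0.56 (SE 0.14, adjusted p = 0.0737), or 0.47 under the offsets. Rps24 (0.57) and Rps7 (0.58), of the small subunit, had adjusted p of 0.0863 and 0.0869 and offset values of 0.29 and 0.35.

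Against 9.16% higher and 13.8% lower over all genes, 37 of 78 nuclear-encoded subunits of oxidative phosphorylation were higher and 1 lower. Of 77 mitochondrial ribosomal proteins 29 were higher and 0 lower. The medians of these lists, 0.30 and 0.23, became 0.075 and 0.09 under the offsets, with 13 and 19 higher. The fitted medians were 0.18 for oxidative phosphorylation without GATA3-KO DMSO replicate 1 and 0.14 for mitochondrial ribosomal proteins without GATA3-KO IR replicate 2. Ndufb2, a subunit of complex I, was at 32.6 and 31.3 against 29.7 and 28 CPM in Rictor-KO, and rose from 34.7 and 42.3 to 49.5 and 63.5 CPM in GATA3-KO (difference 0.70, SE 0.18, adjusted p = 0.0775, offset value 0.66). Ndufa7, also of complex I (0.63), and the mitochondrial ribosomal protein Mrpl55 (0.64) had offset values of 0.30 and 0.47. The mitochondrial genome supplied 0.456% to 0.61% of the reads in GATA3-KO libraries and 0.854% to 1.01% in Rictor-KO libraries. Of its 13 tested transcripts, 7 were higher, with a median of 0.34 that turned to -0.25 under the offsets and was 0.21 without GATA3-KO IR replicate 2. For mt-Nd2 the difference was 0.58 as fitted and -0.01 under the offsets, and for mt-Co3 it was 0.34 and -0.25. Of 32 proteasome subunits 11 were higher and 1 lower: Psma6, a core subunit, differed by 0.61 and Psmd3, of the regulatory cap, by -0.55 (adjusted p of 0.0849 and 0.0737, offset values 0.31 and -0.47). The proteasome median of 0.22 became 0.072 with the offsets, with 7 higher and 4 lower, and was 0.14 without GATA3-KO DMSO replicate 1.

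**Figure D5:**
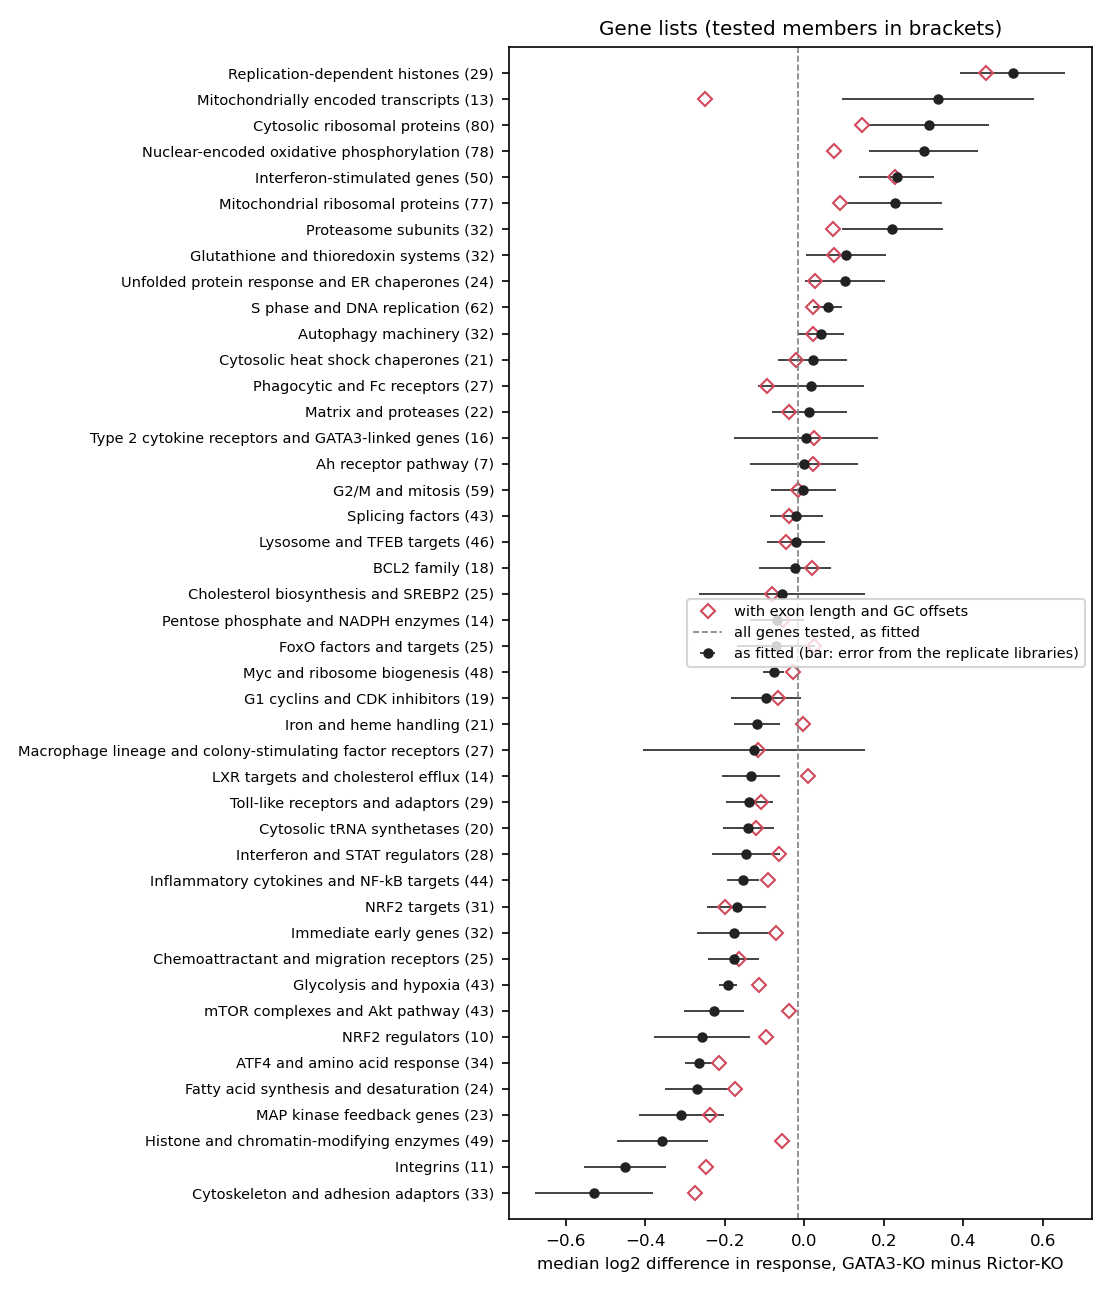
Median log2 difference in response (horizontal axis) of 44 gene lists, as fitted (black, with an error from the replicate libraries) and with exon length and GC offsets (red). Interferon-stimulated genes (0.23 and 0.23), ATF4 targets (-0.26 and -0.21) and NRF2 targets (-0.17 and -0.20) lie close together in both fits, whereas chromatin enzymes (-0.36 and -0.055) move close to the median of all genes.

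Splicing factors were divided, with 9 higher and 12 lower of 43 tested, against 9.16% and 13.8% of all genes. With the offsets the counts were 8 and 13, against 8.68% and 8.0% of all genes. Srsf3 and Srsf7 encode small SR proteins that bind exons. Srsf3 (ENSMUSG00000071172, chromosome 17, 29032628 to 29043373) was at 486 and 515 CPM in untreated and 438 and 456 CPM in treated Rictor-KO, and rose from 630 and 728 to 871 and 982 CPM in GATA3-KO. Its difference was 0.61 (SE 0.13, adjusted p = 0.0737), or 0.42 under the offsets. Srsf7 stayed between 257 and 269 CPM in Rictor-KO and rose from 248 and 304 to 386 and 450 CPM in GATA3-KO (difference 0.65, SE 0.14, offset value 0.47). Prpf8 and Snrnp200, the large core proteins of the spliceosome, went the other way, with differences of -0.63 and -0.68 and offset values of -0.29 and -0.37. Outside the list, Tia1, an RNA-binding protein of stress granules, had a difference of 0.58 (offset value 0.51), and the ubiquitin ligase Trim23 one of 0.70 (offset value 0.61). Other positive differences with an adjusted p of 0.0737 were those of Znhit3 (0.84), of Snx16, an endosomal sorting nexin (0.85), and of Mien1 (0.61), with offset values of 0.47, 0.60 and 0.42. Among the negative ones were Arfgef2, an exchange factor for Arf GTPases (-0.64), Itpr1, a calcium channel of the endoplasmic reticulum (-0.65), the kinesin Kif16b (-0.78) and Atmin (-0.83), with offset values of -0.30, -0.29, -0.52 and -0.61.

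Receptors and lineage factors of macrophages differed in a few members. Tlr13, the mouse sensor of bacterial ribosomal RNA, rose from 24.7 and 23.6 to 56.1 and 55.6 CPM in Rictor-KO and from 29.7 and 28.2 to 43.5 and 37.1 CPM in GATA3-KO. Both treated Rictor-KO libraries exceeded both treated GATA3-KO libraries, and the difference was -0.73 (SE 0.14, adjusted p = 0.0737), or -0.80 under the offsets. Tlr9, the sensor of unmethylated DNA, fell in GATA3-KO (-0.97, adjusted p = 0.000667), with a difference of -0.79 (SE 0.19, adjusted p = 0.0737; offset value -0.57). Over 29 tested Toll-like receptors and adaptors, 0 were higher and 6 lower, against 9.16% and 13.8% of all genes, and with the offsets 2 were higher and 3 lower. Zeb2, a repressor needed for macrophage identity, rose in Rictor-KO from 166 and 155 to 235 and 233 CPM and was at 117 and 91.6 against 104 and 96.9 CPM in GATA3-KO (difference -0.60, SE 0.14, adjusted p = 0.0737, offset value -0.46). Runx1, a haematopoietic factor, fell in GATA3-KO (-0.35, adjusted p = 0.041) and had opposite ratios in the lines, with a difference of -0.70 (SE 0.17; offset value -0.47). Csf1r, the receptor for macrophage colony-stimulating factor, also fell in GATA3-KO (-0.41, adjusted p = 0.0286; difference -0.59, SE 0.18, offset value -0.31). Of 27 lineage genes 0 were higher and 3 lower, which is near the background.

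The authors' deposited tables list the log2 fold change of isorhamnetin against DMSO for each line. In the authors' deposited table the values of C5ar1 are 1.22 for Rictor-KO and -0.43 for GATA3-KO, those of Fnip2 are 0.39 and -0.33, and those of Plxnd1 are 0.69 and -0.52. For Abcc1 the authors' deposited table gives 1.22 and 0.44, and for Layn 2.77 and 3.86.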

How the data were processed

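Per the labels, RNA was column-purified and libraries followed standard Illumina steps. The authors deposited counts of total exon, unique exon and intron reads per gene for each library, besides TPM values, and tables of log2 fold changes per line. Identifiers follow GRCm38, per the submitters' processing notes; neither aligner nor counter is given in the sources used here. Among counts of 1 to 4 exon reads, 81.3% were even, so both mates appear to be counted and counting intervals are optimistic.

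The counts of total exon reads were fitted with edgeR 4.0.16 (R 4.3.3): filterByExpr on 6 groups kept 11808 of 15156 genes with a read, TMM scaling, 1 mean per group over 12 libraries, robust quasi-likelihood F test, two-sided, 6 residual degrees of freedom, Benjamini-Hochberg adjustment over all genes, threshold 0.05. The fit was tested on simulated data, where it recovered 18% of 1.5-fold and 78% of 2-fold changes in the difference. Those counts were drawn without the exon length, GC or replicate trends of the real libraries. SE is from that fit, n = 2 libraries per group. CPM are TMM-scaled. "Rose" and "fell" are used of responses past the threshold. DESeq2 1.42.0 was an alternative, as were other scalings, filters, read columns, left-out libraries and, added after seeing the data, offsets from splines in exon length (exon sequence length in the tables) and GC content (GENCODE M21), known for 11797 genes.

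Named genes were to be those past the threshold, up to 4 per list by smallest p, Rictor and Gata3; the first part took none. Members and the 44 lists were chosen with earlier results of these data known. TPM was not used for results.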

Additional observations from a re-analysis of the deposited data

Results flagged for a closer look

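Fnip2 and Plxnd1 moved in opposite directions in the lines, with both responses past the threshold in edgeR and every library ratio of one sign in Rictor-KO and of the other in GATA3-KO. Both were flagged by that rule. The difference was -0.732 for Fnip2 and -1.22 for Plxnd1, each with an adjusted p of 0.0737, so the test of the difference was not passed. DESeq2 gave adjusted p of 0.000149 and 0.000465.

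The intron share of reads, which the comparisons do not use, fell from 7.02% and 7.35% to 6.38% and 6.39% with isorhamnetin in Rictor-KO and rose from 5.45% and 5.86% to 6.20% and 6.72% in GATA3-KO. The change in GATA3-KO minus that in Rictor-KO was 1.61 percentage points. This difference was not tested, and its part in the gene results was not tested.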

How the results depend on the processing

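The count of 0 genes for the difference stayed at 0 with DESeq2 size factors, upper quartile scaling, library totals, a stricter filter, only the 8 knockout libraries, unique reads, read pairs, and exon length or GC offsets, alone or together. It was 233 with no filter on low counts, 1009 with DESeq2's test, and 0 to 1510 when any 1 library was left out. Genes at an unadjusted p of 0.05 numbered 1258 to 3483 without 1 library. The Rictor-KO response had 143 to 249 calls and the GATA3-KO response 544 to 3388 without 1 library, while DESeq2 gave 434 calls and both offsets 352 for Rictor-KO. The causes were not tested.

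Libraries of equal replicate number deviated together in well-expressed genes of both knockout lines (correlation 0.823 in Rictor-KO and 0.665 in GATA3-KO), but not in WT (-0.185). Nothing in the sources says that the numbers pair the samples, and what such libraries share was not tested. A replicate block within genotype gave 3173 calls for the difference (4461 at an unadjusted p of 0.05), 1420 for Rictor-KO and 5176 for GATA3-KO. A replicate block shared by the genotypes gave 494 for the difference. The block within genotype with exon length and GC offsets gave 1385 for the difference and 1331 for Rictor-KO.

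Of 2578 values of 96 genes followed over 27 alternatives, 6 changed sign. Most of these genes were named for a small p of the same difference, so a kept sign was partly fixed by the choice and says little about other genes. With both offsets, and with the block added to them, the difference was 0.047 and 0.047 for Mafg, -0.0068 and -0.0030 for mt-Nd2, and -0.25 and -0.24 for mt-Co3. Of 1187 medians of the 44 lists, 135 moved by more than their replicate error.

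With 2 libraries per group the median SE of the difference was 0.169 on the log2 scale.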

Other observations

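Replication-dependent histone genes had the largest positive median of the 44 lists, 0.53, on few reads. Of 29 tested members 2 were higher and 1 lower at an unadjusted p of 0.05, against 9.16% and 13.8% of all genes. The median was 0.46 with exon length and GC offsets and 0.20 without GATA3-KO IR replicate 2.

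The 16 tested type 2 cytokine receptors and GATA3-linked genes had a median difference of 0.0044, which ran from -0.30 to 0.21 when 1 library was left out. At an unadjusted p of 0.05, 0 were higher and 3 lower, against 9.16% and 13.8% of all genes. Beside the same shares of all genes, S phase genes had 8 higher and 6 lower of 62, and mitotic genes 9 higher and 11 lower of 59. Their medians were 0.059 and -0.002.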
